A study of Mus musculus with 5 samples.

Results

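Genes of G2 phase and mitosis were followed across 5 single-cell RNA-seq libraries of mouse submandibular salivary gland. The set was a fixed list of 41 gene symbols, and all 41 were found among the 30406 genes present in the gene lists of every library. The libraries were untreated 7-day salivary gland organoids (mSGOs, the control), 7-day mSGOs given 7 Gy of photons on day 5, 7-day mSGOs given 7 Gy of protons on day 5, mSGOs left untreated for 11 days, and cells freshly isolated from the gland. All cells came from C57BL/6 mice, and the animals were 8 to 12 weeks old according to the labels of 4 libraries, which give no age for the 11-day library. Per the study's methods the mice were female. The labels name 4 animals as the source of the organoids, which grew in Matrigel in a medium with Wnt3a- and R-spondin1-conditioned media, EGF, FGF2 and Y27632, so that every organoid group shared these growth signals. Protons were given in the plateau of the beam, and the medium of all 7-day groups was changed after the irradiation. Sorting kept 45000 cells per library that excluded propidium iodide, which leaves out dead cells. For the 11-day mSGOs both the animals and the sequencing run were different, so culture age, animals and run cannot be told apart in that comparison. Each group held 1 library, so no difference between conditions was tested, and every interval below is a 95% interval for counting error alone.

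A dividing cell turns these genes on late in the cell cycle and off again after division. Cyclins A and B with Cdk1 start mitosis, the Aurora and Polo kinases build the spindle, kinetochore proteins attach chromosomes to it, the anaphase-promoting complex ends mitosis by marking proteins for destruction, and regulators of the contractile ring split the cell. Most of these genes are kept silent in resting cells by the DREAM complex, whose MuvB core contacts a promoter element called the cell cycle genes homology region (CHR), and are activated in G2 by B-Myb and Foxm1, while NF-Y binds CCAAT boxes in the same promoters. Ionizing radiation holds cells in G2 through checkpoint kinases and lowers the transcription of G2 and mitosis genes through p53 and its target Cdkn1a (p21). In the adult salivary gland few cells divide, whereas organoids grow by division of duct-derived progenitors.

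The promoters of the members shared sequence elements that the choice of the list did not use. RefSeq promoter windows (GRCm38.p6, 250 bases before to 50 bases after a transcript start) were matched by symbol for 35 of the 41 genes, and Kif20a, Ccna2, Tpx2, Aurkb, Pbk and Smc4 had none in the table. A CHR (the letters TTTGAA or TTCGAA, on either strand) stood in the window of 29 of the 35 genes (82.9%), against 21.7% of the 27025 genes in the table. A CCAAT box (CCAAT on either strand, read as ATTGG on the other) stood in 26 (74.3%, against 41.1% of all genes), 2 or more CCAAT boxes stood in 18 (51.4%, against 13.3%), and both elements stood in 24 (68.6%, against 8.61%). A further list of 61 G2 and mitosis genes had 47 genes matched to a promoter. Of these 47, 61.7% held a CHR, fewer than among the members, 74.5% a CCAAT box and 53.2% both. The CHR was less frequent in S phase genes (22.6% of 31), which held CCAAT boxes at a similar share (71.0%). These are matches of letters and do not show binding. The following 100-base stretches are printed because they hold some of the CCAAT boxes of 4 members, and for Cdk1 and Top2a also a CHR. Capitals mark these matches, each stretch lies upstream of the transcript start and is written 5′ to 3′ on the strand of the gene.
Cdk1 (chr10:69352943-69353042, minus strand, ending 31 bases before the start): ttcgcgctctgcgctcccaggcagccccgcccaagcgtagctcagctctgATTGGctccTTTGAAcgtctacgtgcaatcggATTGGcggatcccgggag
Ccnb2 (chr9:70421593-70421692, minus strand, ending 39 bases before the start): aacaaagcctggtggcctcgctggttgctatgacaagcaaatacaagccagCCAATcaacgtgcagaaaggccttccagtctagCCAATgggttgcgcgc
Ube2c (chr2:164769748-164769847, plus strand, ending 82 bases before the start): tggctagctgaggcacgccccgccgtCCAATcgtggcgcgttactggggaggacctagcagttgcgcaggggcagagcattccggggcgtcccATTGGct
Top2a (chr11:99024237-99024336, minus strand, ending 48 bases before the start): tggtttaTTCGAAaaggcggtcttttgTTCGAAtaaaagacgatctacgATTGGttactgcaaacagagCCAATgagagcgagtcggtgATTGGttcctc
Within the printed stretch of Cdk1 the CCAAT boxes began at -80 and -48 and the CHR at -71, counted from the transcript start. The boxes of Ccnb2 began at -87 and -54, those of Ube2c at -155 and -88, and the 3 boxes in the stretch of Top2a at -98, -78 and -58. The whole windows held more matches, 3 CCAAT boxes and 2 CHR for Cdk1 and 6 CCAAT boxes and 4 CHR for Top2a.

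After filtering, 6494 barcodes remained in the control, 15610 after photons, 15325 after protons, 9484 in 11-day mSGOs and 1402 in tissue, with medians of 898, 1049, 965, 3025 and 2385.5 unique molecular identifiers (UMIs, which count captured transcripts) per barcode. The tissue library had 11597 barcodes under the minimum of 200 genes. Between 8.95% and 15.97% of the barcodes of the 7-day and tissue libraries had at least 1% of their UMIs from Malat1, a long noncoding RNA retained in the nucleus, against 98.8% in 11-day mSGOs. Results are therefore given for all kept barcodes and, where stated, for barcodes with at least 1% Malat1. The cell barcode sequences shared by more than 1 library numbered 551. Epcam, an epithelial marker, was between 722 and 1299.7 CPM (UMIs scaled to a total of 1000000 per library) in the organoid libraries. The macrophage markers C1qa and C1qb and the endothelial marker Cdh5 were at 0 there. Not all markers of these cell types were at 0, since Cd68 of macrophages and Pecam1 of endothelial cells were detected in each organoid library. Tissue held 357 CPM of C1qa and 6983 of Smgc, a secretory product of the gland that was at 0 in the organoid libraries.

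The 41 genes together stood at 1010 CPM in the control (994 to 1026), 625 after photons, 669 after protons, 298 in 11-day mSGOs and 104 in tissue. These sums rested on 15950, 15822, 16566, 9516 and 615 UMIs. Over all kept barcodes the control was the highest library and tissue the lowest, and the irradiated libraries lay between the control and the 11-day mSGOs. Among barcodes with at least 1% Malat1 the order of tissue and 11-day mSGOs turned. Tissue stood at 464 CPM there (417 to 515) and 11-day mSGOs at 274 (269 to 280). The log2 ratio to the control was -0.69 after photons (-0.73 to -0.66), -0.59 after protons (-0.63 to -0.56), -1.76 in 11-day mSGOs (-1.80 to -1.72) and -3.28 in tissue (-3.40 to -3.17). With median-of-ratios scaling in place of CPM the ratios of 11-day mSGOs and tissue moved to -2.89 and -1.89, so their order turned there too. In sums over cells, fewer cells in G2 and mitosis and less RNA of these genes per cell give the same change and cannot be told apart.

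**Figure D1:**
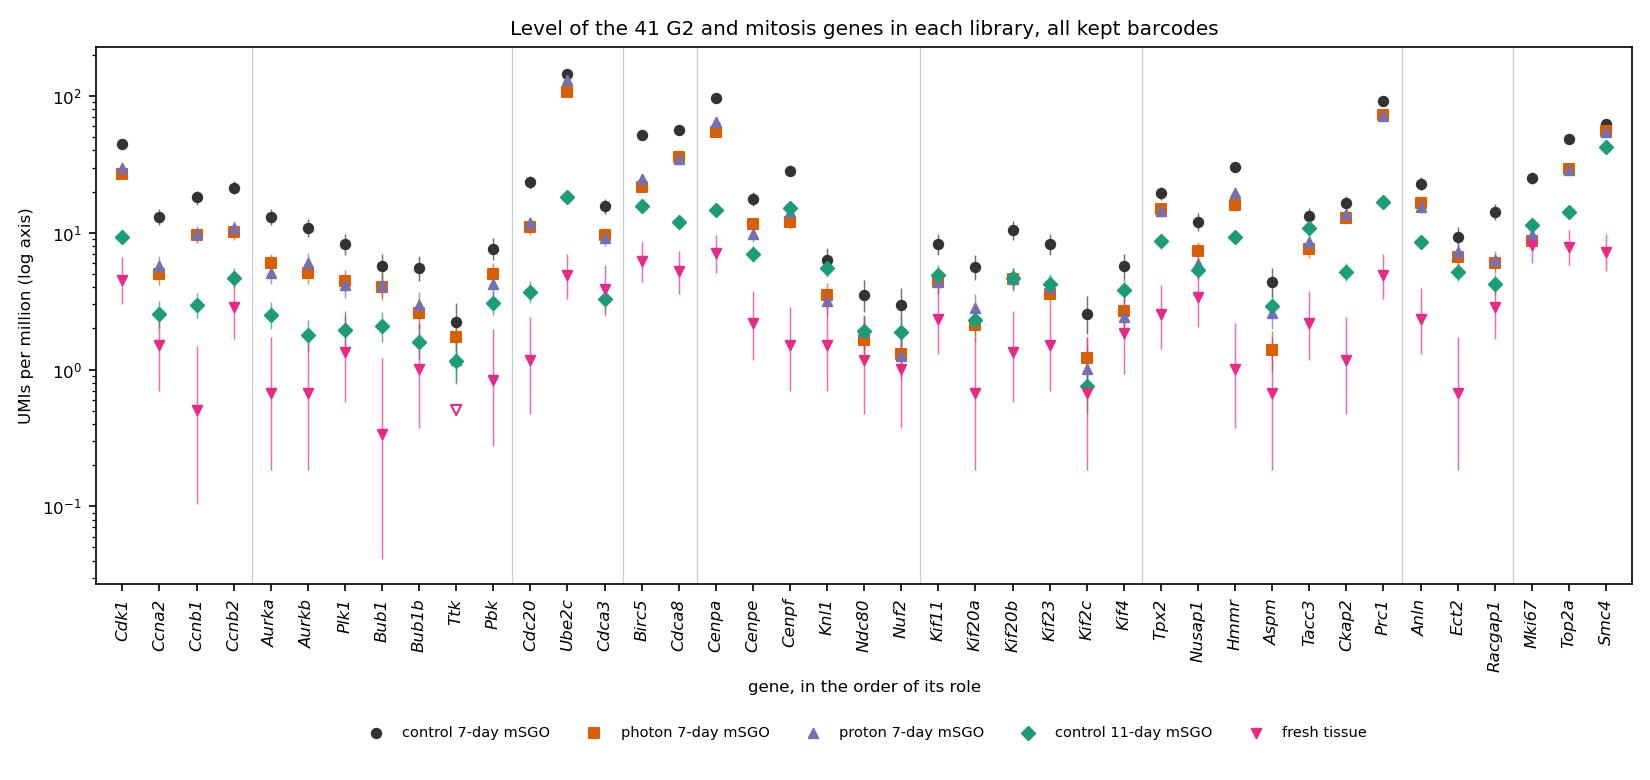
Level of each of the 41 genes (CPM, log axis) in the 5 libraries, with genes on the x axis in the order of their roles, grey lines between roles and bars for 95% exact Poisson intervals. The control 7-day point is the highest for every gene, and the open triangle marks Ttk in tissue, which had 0 UMIs and is drawn at the 3-count floor of 0.506.

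The set was lower in both irradiated libraries. Counting members that differed from the control by at least 0.5 on the log2 scale (1 CPM added), 32 of 41 were lower after photons, against a background of 2.79% of the 10478 genes with at least 50 UMIs in the 2 libraries, and 34 of 41 were lower after protons, against 3.4% of 10390 genes. No member was higher by as much, a size that 6.74% of all genes reached after photons and 5.93% after protons. All 41 members had a ratio below 0 in both comparisons, with medians of -0.77 after photons and -0.75 after protons, beside medians of 0.09 over all genes tested in both. The interval lay wholly below 0 for 40 members after photons and for 41 after protons. The exception was Ttk, the spindle checkpoint kinase Mps1, at -0.23 (-0.68 to 0.22) after photons. With every barcode thinned to 1000 UMIs 17 of the 31 members with enough UMIs were lower by 0.5 after photons (6.16% of 8097 genes) and 19 of 30 after protons (5.66% of 7581). After thinning a member could pass the minimum through the control alone, so these thinned counts are a description only. With 5 CPM added in place of 1, without thinning, it was 21 of 41 after photons (1.14% of all genes) and 23 of 41 after protons (1.25%). The photon and proton comparisons share the same control library, so they are given side by side and are not independent of each other.

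**Figure D2:**
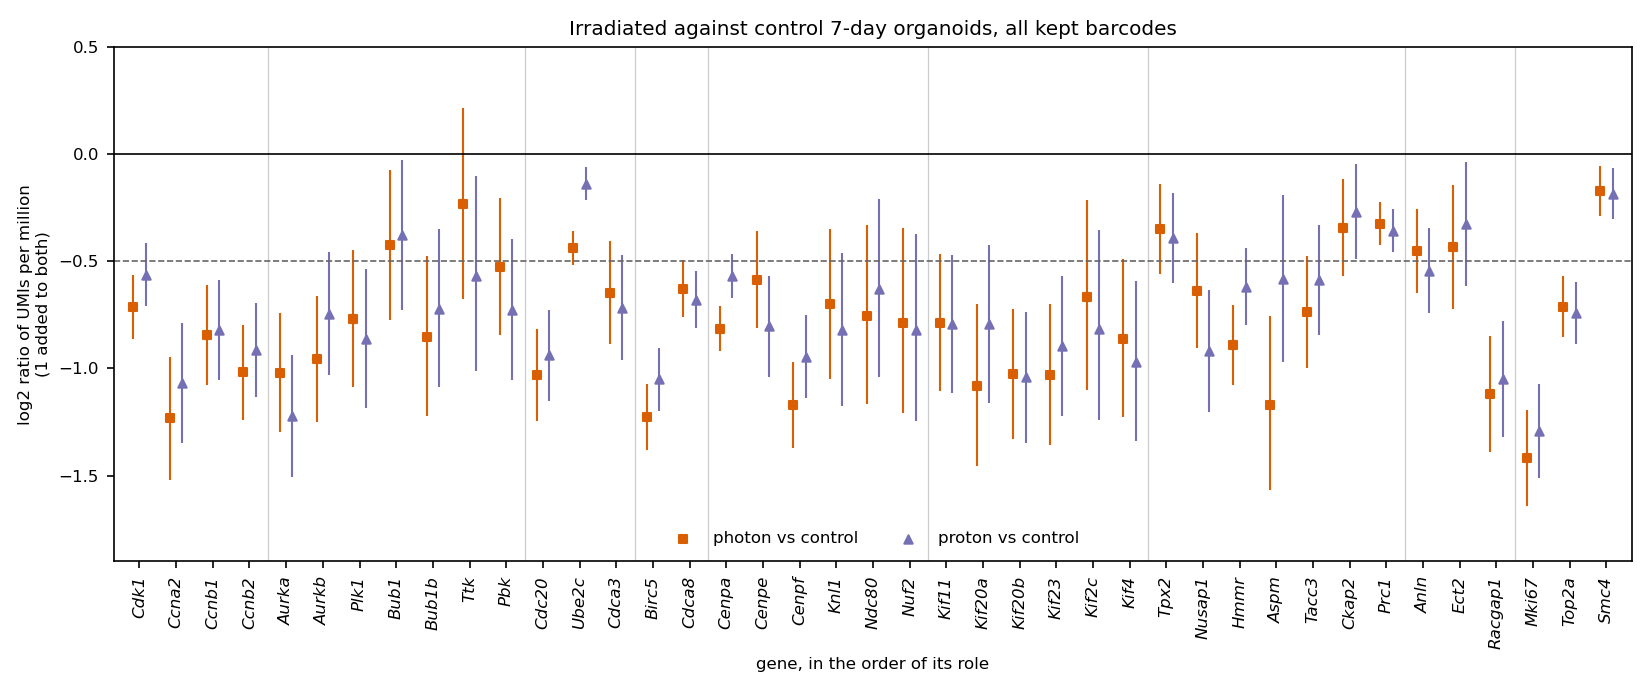
Log2 ratio of CPM (1 added) of each of the 41 genes after photons (squares) and protons (triangles) against control 7-day mSGOs, with 95% counting intervals, the line at 0 and the dashed line at -0.5. Mki67 is the lowest in both at -1.42 and -1.29, and Smc4 is the closest to 0 after photons at -0.17.

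Among the genes that drive entry into mitosis, Cdk1, the kinase of the mitotic cyclins (ENSMUSG00000019942), stood at 44.4 CPM in the control, 26.7 after photons, 29.8 after protons, 9.31 in 11-day mSGOs and 4.55 in tissue. The irradiated libraries were both below the control interval of 41.2 to 47.8. Against the control, photons gave a log2 ratio of -0.71 (-0.86 to -0.56) and protons one of -0.56 (-0.71 to -0.41). Ccnb2, cyclin B2, stood at 21.4 CPM in the control, 10.1 after photons, 10.9 after protons, 4.70 in 11-day mSGOs and 2.87 in tissue. Both irradiated values were less than the lower bound of the control (19.2), with ratios of -1.02 and -0.91. Ccna2, the cyclin of S phase and G2, was among the 5 members most lowered by photons and stood at 13.0 CPM in the control, 4.97 with photons and 5.69 with protons, with log2 ratios of -1.23 (-1.52 to -0.95) and -1.07 (-1.35 to -0.79). Ccnb1, cyclin B1, had ratios of -0.85 and -0.82. As a group the 4 genes were at 97.0 CPM in the control, 51.4 with photons and 56.2 with protons.

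The 7 kinases were lower by a similar amount as a group, with ratios of -0.89 after photons and -0.94 after protons. Aurka, the Aurora kinase of the centrosome and spindle poles, stood at 13.1 CPM in the control, 5.96 after photons, 5.05 after protons, 2.51 in 11-day mSGOs and 0.674 in tissue. Aurkb, the Aurora kinase of the chromosomal passenger complex, stood at 10.8, 5.09, 6.06, 1.79 and 0.674 CPM in the same order. For both genes the irradiated libraries were close to each other and below the control, with ratios after photons of -1.02 (-1.29 to -0.74) and -0.96 (-1.25 to -0.66), and after protons of -1.22 (-1.51 to -0.94) and -0.75 (-1.03 to -0.46). Plk1, the Polo-like kinase, had ratios of -0.77 after photons and -0.86 after protons, and Bub1b, a spindle checkpoint protein, of -0.85 and -0.72. The checkpoint kinase Bub1 was within the 0.5 limit in both, at -0.43 and -0.38. Pbk, a mitotic kinase, had -0.53 and -0.73. Ttk rested on the fewest UMIs of the group (35 in the control, 44 after photons, 29 after protons), and its ratio after protons was -0.57 (-1.01 to -0.10).

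Genes of the anaphase-promoting complex and of mitotic entry differed from each other. Cdc20, its mitotic activator, stood at 23.4 CPM in the control, 10.9 after photons, 11.7 after protons, 3.70 in 11-day mSGOs and 1.18 in tissue, with ratios of -1.03 (-1.24 to -0.82) and -0.94 (-1.15 to -0.73). Ube2c, the ubiquitin-conjugating enzyme of the complex, had the most UMIs of any member in the control (2294) and stood at 145 CPM there, 107 after photons, 132 after protons, 18.2 in 11-day mSGOs and 4.89 in tissue. Its interval after protons (127 to 137) lay between those of the control (139 to 151) and of photons (103 to 111). Photons gave a ratio of -0.44 (-0.52 to -0.36) and protons one of -0.14 (-0.21 to -0.06), the smallest difference of any member in the proton comparison. Cdca3, a trigger of mitotic entry, stood at 15.6 CPM in the control, 9.63 after photons, 9.12 after protons, 3.29 in 11-day mSGOs and 3.88 in tissue, with ratios of -0.65 and -0.72.

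In the chromosomal passenger complex, which corrects chromosome attachment and steers cytokinesis, Birc5 (survivin) stood at 52.2 CPM in the control, 21.8 after photons, 24.7 after protons, 15.6 in 11-day mSGOs and 6.24 in tissue. Cdca8 (borealin) stood at 56.3 CPM in the control, 36.1 after photons, 34.8 after protons, 12.1 in 11-day mSGOs and 5.23 in tissue. The irradiated libraries were lower than the control for both. Birc5 had the larger ratios, -1.23 (-1.38 to -1.07) after photons and -1.05 (-1.20 to -0.90) after protons, against -0.63 (-0.76 to -0.50) and -0.68 (-0.81 to -0.54) for Cdca8, so that the counting intervals of these 2 partners did not overlap in either comparison.

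Centromere and kinetochore genes were likewise lower. Cenpa, the histone H3 variant of centromeres, stood at 96.2 CPM in the control, 54.2 after photons, 64.5 after protons, 14.8 in 11-day mSGOs and 7.08 in tissue, and its interval after protons (61.4 to 67.8) was above that after photons (51.4 to 57.2). Cenpf, a large kinetochore and nuclear matrix protein of G2 cells, stood at 28.4 CPM in the control, 12.0 after photons, 14.2 after protons, 15.1 in 11-day mSGOs and 1.52 in tissue. Unlike Cenpa, its level in 11-day mSGOs was no lower than after irradiation. Ratios after photons were -0.81 (-0.92 to -0.71) for Cenpa and -1.17 (-1.37 to -0.97) for Cenpf, and after protons -0.57 (-0.67 to -0.47) and -0.95 (-1.14 to -0.75). The kinetochore motor Cenpe and the members of the microtubule-binding KMN network, Knl1, Ndc80 and Nuf2, had ratios between -0.59 and -0.79 after photons and between -0.63 and -0.82 after protons.

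The 6 spindle motors had the lowest group ratio. Their sum was 40.9 CPM in the control and 18.6 after photons (-1.14, -1.31 to -0.96), and protons left it at 19.2 CPM (-1.09, -1.27 to -0.92). Kif20b, a kinesin of the midbody, stood at 10.4 CPM in the control, 4.62 after photons, 4.56 after protons, 4.67 in 11-day mSGOs and 1.35 in tissue. Kif11 (Eg5), which pushes the spindle poles apart, stood at 8.30 CPM in the control, 4.38 after photons, 4.36 after protons, 4.95 in 11-day mSGOs and 2.36 in tissue. Kif23, the motor of the central spindle, stood at the same control level of 8.30 CPM, with 3.55, 4.00, 4.23 and 1.52 CPM in the other libraries. For these 3 motors the irradiated and the 11-day libraries had overlapping counting intervals, all below that of the control. For Kif11 the direction in 11-day mSGOs turned among barcodes with at least 2500 genes (0.76, 0.20 to 1.34). Kif20a, Kif2c and Kif4 had ratios between -1.08 and -0.67 after photons and between -0.97 and -0.79 after protons.

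Spindle assembly genes held 3 of the 5 members least lowered after photons. Prc1, which bundles antiparallel microtubules of the central spindle, stood at 91.9 CPM in the control, 73.2 after photons, 71.5 after protons, 16.7 in 11-day mSGOs and 4.89 in tissue. Hmmr, a spindle and hyaluronan-binding protein, stood at 30.3 CPM in the control, 15.9 after photons, 19.4 after protons, 9.25 in 11-day mSGOs and 1.01 in tissue. The irradiated libraries were below the control in both, by a smaller ratio for Prc1 (-0.32, -0.42 to -0.23, after photons and -0.36, -0.46 to -0.26, after protons) than for Hmmr (-0.89 and -0.62). Ckap2, a microtubule stabilizer, had ratios of -0.34 and -0.27, and Tpx2, the activator of Aurka on the spindle, -0.35 and -0.39. Aspm, a spindle pole protein, was among the 5 most lowered by photons, at 4.37 CPM in the control, 1.38 with photons and 2.58 with protons. Nusap1 and Tacc3, which bind spindle microtubules, had ratios between -0.92 and -0.59.

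The cytokinesis genes were split in the same way. Anln (anillin), the scaffold of the contractile ring, stood at 22.9 CPM in the control, 16.5 after photons, 15.4 after protons, 8.62 in 11-day mSGOs and 2.36 in tissue, with ratios of -0.45 and -0.54. Racgap1, the GTPase activator of the central spindle, stood at 14.1, 5.96, 6.30, 4.20 and 2.87 CPM in the same order, with ratios of -1.12 (-1.39 to -0.85) and -1.05 (-1.32 to -0.78). Ect2, the exchange factor that Racgap1 binds, had -0.43 and -0.33.

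Of the genes of chromosome structure, Mki67 (Ki-67), which coats mitotic chromosomes and is the usual marker of cycling cells, stood at 25.1 CPM in the control, 8.76 after photons, 9.65 after protons, 11.4 in 11-day mSGOs and 8.09 in tissue. Its ratio was the lowest of all members in both comparisons, -1.42 (-1.64 to -1.19) and -1.29 (-1.51 to -1.07). Top2a, topoisomerase II alpha, stood at 48.9 CPM in the control, 29.5 after photons, 28.8 after protons, 14.2 in 11-day mSGOs and 7.92 in tissue, with ratios of -0.71 and -0.74. Smc4, a condensin subunit, stood at 62.6 CPM in the control, 55.4 after photons, 55.0 after protons, 42.3 in 11-day mSGOs and 7.25 in tissue. The control interval of Smc4 (58.8 to 66.7) lay just above those after photons (52.6 to 58.4) and protons (52.1 to 58.0), for ratios of -0.17 (-0.29 to -0.06) and -0.18 (-0.30 to -0.07).

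Protons and photons left the set at nearly the same level. The pooled ratio of protons to photons was 0.10 (0.07 to 0.13), and the median over the members was 0.05. Only Aspm passed the limit, at 0.59 (0.19 to 0.97), 1 of 41 where 0.671% of 10729 genes were higher, and no member was lower where 1.33% were. The interval lay above 0 for 7 members, among them Ube2c at 0.30 (0.23 to 0.37), Hmmr at 0.27 (0.09 to 0.46) and Cenpa at 0.25 (0.14 to 0.35), and below 0 for Nusap1 (-0.28). Within barcodes with at least 1% Malat1 the pooled ratio was 0.00 (-0.05 to 0.06), so the small excess after protons was not present there.

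A UMI of these genes was found in a smaller share of barcodes after irradiation. At least 1 of the 41 was detected in 68.7% of control barcodes (67.5 to 69.8), 52.1% after photons (51.3 to 52.9), 53.2% after protons (52.4 to 54.0), 27.7% of 11-day barcodes and 11.2% of tissue barcodes. At 1000 UMIs per barcode the difference was much smaller, with 48.04% in the control (46.1 to 50.0), 44.3% (43.3 to 45.4) with photons and 44.0% (42.8 to 45.2) with protons. With at least 1% Malat1 as well it was 39.3%, 37.2% and 31.9%, and the intervals of the control and the photon library overlapped. The share positive was lower for all 41 members in both irradiated libraries, with a median log2 ratio of -1.28 in each, while the number of UMIs per positive barcode was lower for 38 members after photons and 40 after protons with medians of only -0.23 and -0.22. For Mki67, 3.66% of control barcodes were positive with 1.66 UMIs each, against 1.22% with 1.16 UMIs after photons and 1.15% with 1.36 UMIs after protons. For Birc5, 9.05% of control barcodes were positive with 1.40 UMIs each, against 2.98% with 1.18 and 3.31% with 1.21. These raw shares also carry depth, since mean UMIs per barcode differed from the control by -0.58 on the log2 scale after photons and by -0.59 after protons.

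With every barcode thinned to 1000 UMIs, which left out 3942 control, 6733 photon and 8582 proton barcodes with fewer, the difference still lay mainly in the share. Of the 38 members with at least 20 positive barcodes over the photon and control libraries together, 37 had a lower share after photons (median -0.67), and of 37 such members 34 had a lower share after protons (median -0.60). Smc4 was the exception after photons, and Ube2c, Hmmr and Aspm were those after protons. The median change in UMIs per positive barcode was -0.03 and -0.06. At this depth a positive barcode seldom held more than 1 UMI of a gene (for Cdk1 1.06 in the control and 1.04 in both irradiated libraries), so a change in content per positive cell could hardly show. The thinned share of Mki67 was 1.88% in the control, 0.890% with photons and 0.905% with protons, and that of Cenpa 8.82%, 4.84% and 5.67%. Both genes were lower in the irradiated libraries. Smc4 (5.05%, 5.26% and 5.00%), Prc1 (6.66%, 6.65% and 6.38%) and Ube2c (11.8%, 10.0% and 12.2%) differed less between the 3 libraries.

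**Figure D3:**
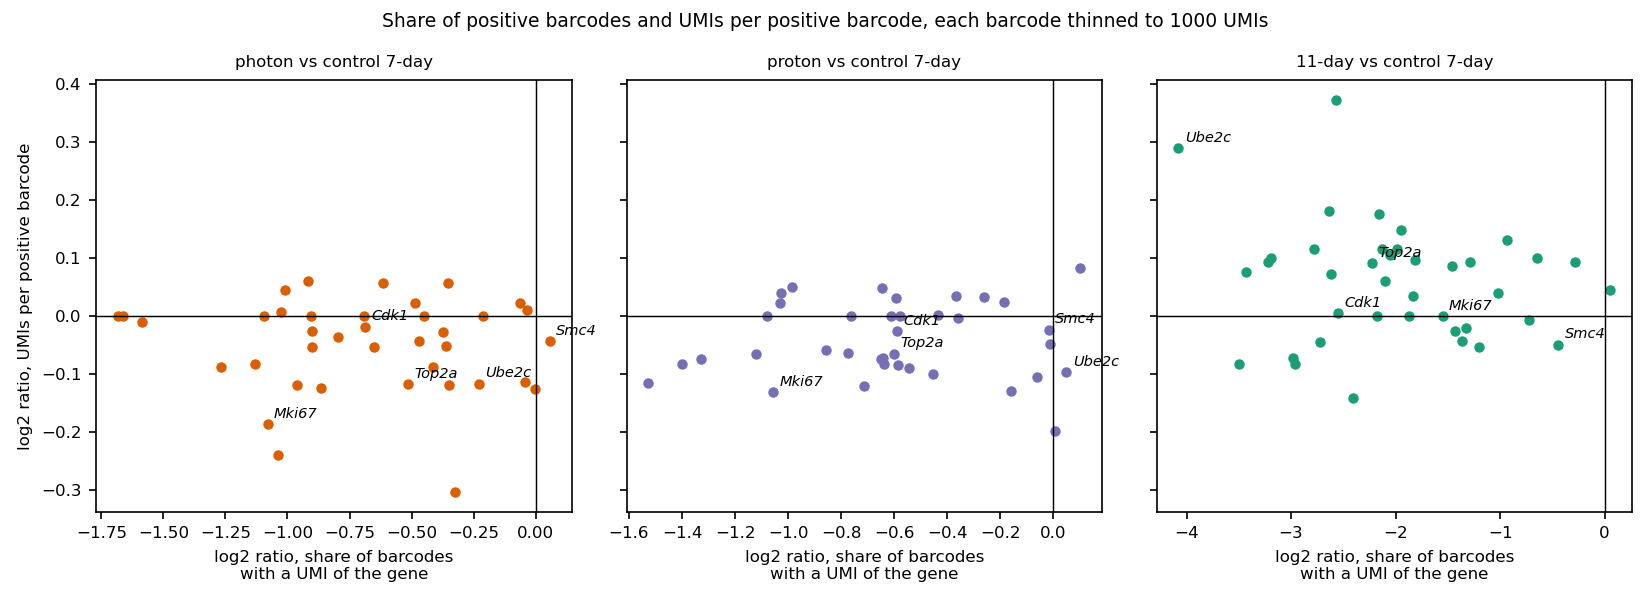
Each point is a gene with at least 20 positive barcodes over the 2 libraries, after thinning every barcode to 1000 UMIs. The x axis gives the log2 ratio of the share of barcodes with a UMI and the y axis that of UMIs per positive barcode; points lie mostly to the left of 0 and close to 0 in height, and Ube2c in 11-day mSGOs is farthest left at -4.08.

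Barcodes that held many of the genes at once were less frequent in the irradiated libraries. A barcode with a UMI from at least 5 of the 41 is called module-high here, a limit on a range of values with no gap at it. There were 375 such barcodes in the control (5.77%, 5.22 to 6.37), 154 after photons (0.987%, 0.837 to 1.15), 169 after protons (1.10%), 144 in 11-day mSGOs (1.52%) and 7 in tissue (0.499%). The control share was the highest and did not overlap with any other, and the irradiated shares overlapped with each other. Barcodes with 3 to 7 members, near the limit, numbered 1099 in the control, 847 after photons, 922 after protons and 99 in 11-day mSGOs. Barcodes with at least 10 members numbered 83 (1.28%), 50 (0.320%), 43 (0.281%) and 112 (1.18%) in these libraries. At that limit the 11-day share among all kept barcodes did not stand apart from the control (log2 ratio -0.11, -0.54 to 0.31). With at least 1% Malat1 it was lower, at 0.971% against 6.65% in the control, and at 1000 UMIs per barcode it was 0.332% against 0.823%. The most members found in 1 barcode were 37 of 41 in the control, 40 after photons, 38 after protons and 36 in 11-day mSGOs, so barcodes with nearly the whole set were present in each organoid library. At equal depth of 1000 UMIs, module-high barcodes were 1.57% of the control, 0.214% of the photon, 0.430% of the proton and 0.932% of the 11-day library.

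**Figure D4:**
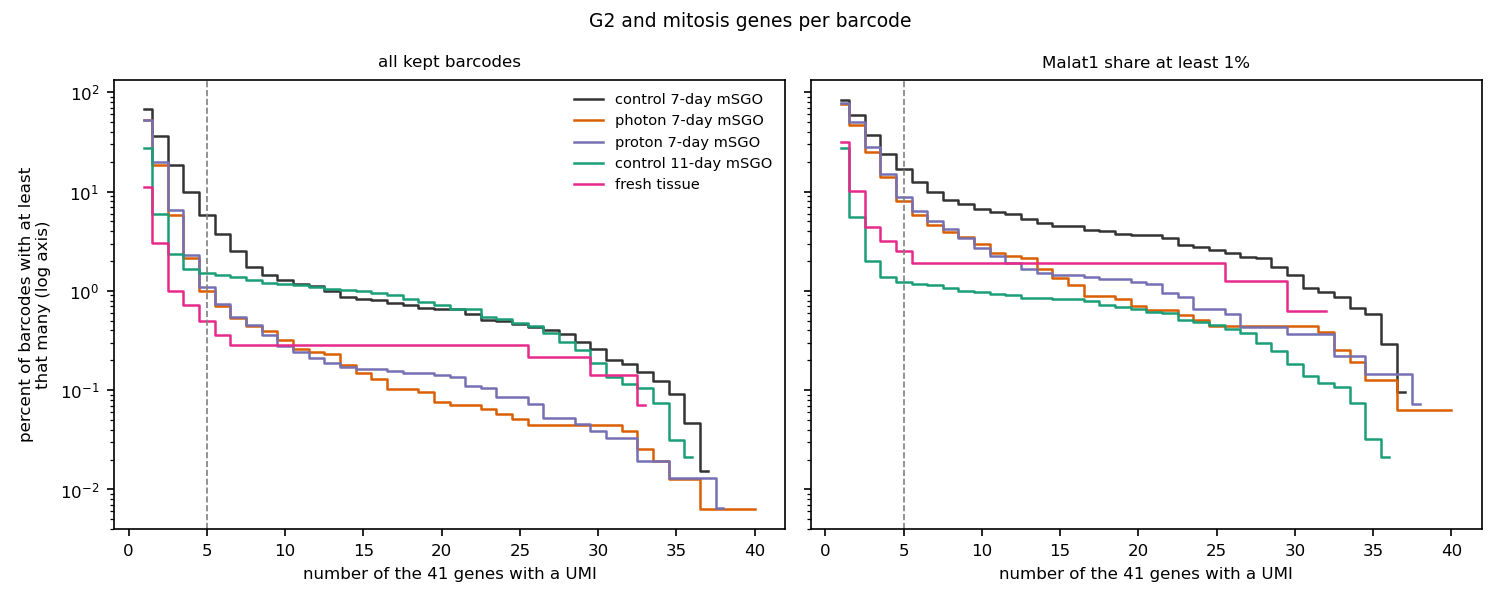
Percentage of barcodes (log axis) in which at least a given number of the 41 genes had a UMI, for all kept barcodes and for barcodes with at least 1% Malat1, with a dashed line at 5 genes. The control curve lies above both irradiated curves from 1 to 36 genes, and among all kept barcodes the 11-day curve lies above the control from 13 to 26 genes.

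The member UMIs were also divided by kind of barcode. Since the members themselves set which barcodes are module-high, a lower level of the set moves barcodes out of that class, and the division is a description only. Module-high barcodes contributed 500 of the 1010 CPM in the control, 124 of 625 after photons and 146 of 669 after protons, log2 ratios of -2.01 (-2.07 to -1.95) and -1.77 (-1.83 to -1.72). All other barcodes contributed 510 CPM in the control, 500 with photons and 523 with protons, ratios of -0.03 (-0.07 to 0.01) and 0.03 (-0.01 to 0.07) whose intervals include 0. The split depends on the limit. With at least 3 members as the limit the other barcodes held 305 CPM in the control and more after photons and protons (389 and 401), and with at least 10 they held 655 in the control and less after irradiation (535 and 568). At 1000 UMIs per barcode the module-high part was 208 CPM in the control, 22.2 with photons and 41.1 with protons, from 40, 19 and 29 barcodes. The other part was 719, 604 and 625. With a limit of 10 members at that depth the high part was 139, 11.2 and 11.6 CPM and the other part 789, 615 and 655. There the larger difference in CPM lay in the other barcodes, with a high part that rested on only 21, 6 and 4 barcodes.

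**Figure D5:**
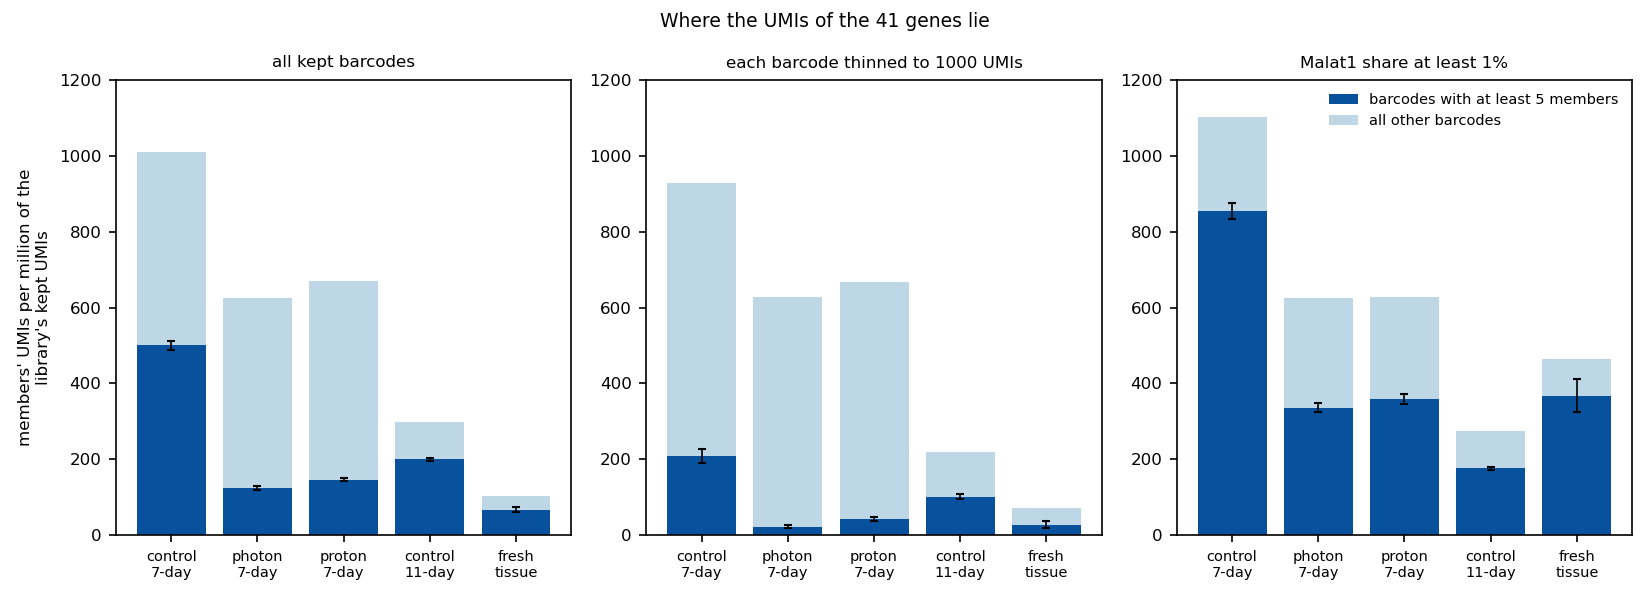
UMIs of the 41 genes as CPM of the library, split into those in barcodes with at least 5 of the genes (dark, with 95% counting intervals) and in all other barcodes (light), for all kept barcodes, for barcodes thinned to 1000 UMIs and for barcodes with at least 1% Malat1. In the left panel the dark part is 500 in the control, 124 with photons and 146 with protons, and the light part lies between 500 and 523 in these libraries.

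Members differed in how much of their RNA lay in such barcodes. For this, a barcode was counted where at least 5 of the other 40 genes were detected, so that a gene did not select its own barcodes. In the control 39.1% of Ube2c UMIs, 33.8% of Smc4 UMIs and 36.8% of Cdk1 UMIs lay there, against 58.7% for Ccna2, 58.6% for Mki67 and 57.4% for Cenpf. After photons the values were 14.4%, 12.8% and 15.1% for the first group and 12.7%, 27.9% and 42.3% for the second. Inside these barcodes 8 of 41 members were lower than in the control by 0.5 after photons and 8 of 41 after protons, with medians of -0.18 and -0.03 and highest ratios of 0.47 and 0.48. Over all genes with at least 20 UMIs inside module-high barcodes, 6.69% of 8286 were lower with photons and 8.21% of 8244 with protons, with medians of 0.24 and 0.21. Ccna2 had the lowest ratio of the members, from 40.2 CPM in the control to 12.2 after photons (-1.64, -2.42 to -0.93) and 18.6 after protons (-1.07, -1.71 to -0.46), resting on 121, 16 and 25 UMIs.

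Barcodes with little Malat1 also held UMIs of these genes. In barcodes with under 0.1% Malat1 the set was at 767 CPM in the control, 565 with photons and 629 with protons, against 1103, 626 and 628 in barcodes with at least 1%. The median share positive over the 41 genes was 2.58% and 6.08% in the control, at median depths of 2504 and 5840 UMIs. At 1000 UMIs per barcode it was 0.828% and 1.00% in the control, 0.755% and 0.601% after photons, and 0.705% and 0.522% after protons. In barcodes with at least 1% Malat1 the thinned share was higher for 25 members and lower for 15 in the control, higher for 18 and lower for 23 after photons, and higher for 21 and lower for 20 after protons. The shares of single members are given as levels and not as shares of cells that express the gene. In the control, Mki67 (3.50% against 0.828%) and Cenpf (2.90% against 0.736%) were more often detected in the barcodes with at least 1% Malat1, whereas Ube2c (7.31% against 13.1%) and Cdk1 (2.90% against 5.06%) were less often detected there. Of the 375 module-high control barcodes, 165 had under 0.1% Malat1, 10 of the 154 after photons did, and 34 of the 169 after protons. The part of free RNA in the differences above was not tested.

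Among barcodes with at least 1% Malat1 the pooled ratio was larger in size than among all kept barcodes, and the ratio of module-high shares was smaller. There were 1037 such barcodes in the control, 1568 with photons and 1372 with protons. Photons gave a pooled ratio of -0.82 (-0.87 to -0.77) here, and protons gave -0.81 (-0.86 to -0.76). Of the members with at least 50 UMIs, 31 of 37 were lower by 0.5 after photons, against 3.6% of 9059 genes, and 32 of 37 after protons, against 4.73% of 8929. The minimum was summed over both libraries compared, so a member could pass it through the control alone, where the set was highest. These counts are a description only. Mki67 stood at 35.9 CPM in the control, 9.20 with photons and 9.74 with protons in these barcodes, Ccna2 at 14.8, 2.71 and 4.02, and Top2a at 66.3, 27.5 and 26.9. All 3 were lower in the irradiated libraries, with ratios after photons of -1.86 (-2.21 to -1.51), -2.09 (-2.61 to -1.56) and -1.24 (-1.47 to -1.01). Module-high barcodes were 16.8% of the control (14.6 to 19.2), 8.10% after photons (6.80 to 9.56) and 8.89% after protons (7.44 to 10.5). That is a log2 ratio of -1.05 after photons and -0.92 after protons, against -2.55 and -2.39 among all kept barcodes. Module-high barcodes held 855, 336 and 359 CPM in the 3 libraries, and the other barcodes held 248, 291 and 269. Inside barcodes with at least 5 other members, 19 of 39 genes were lower by 0.5 with photons and 22 of 39 with protons (medians -0.48 and -0.53, highest 0.30 and 0.20), where 8.14% of 7589 and 10.7% of 7481 genes were lower over all genes inside module-high barcodes (medians 0.09 and 0.06). Among the lower ones, Mki67 stood at 120.4 CPM in the control, 49.4 with photons and 54.5 with protons, and Top2a at 227, 124 and 140.5.

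Module-high barcodes of the organoids carried markers of duct cells. In barcodes with at least 1% Malat1, the 4 markers of basal duct cells (Krt14, Krt5, Krt15 and Trp63) summed to 7162 CPM in the module-high barcodes of the control against 8087 in the others, to 7305 against 8192 after photons, to 7257 against 8086 after protons and to 4267 against 3653 in 11-day mSGOs. The 5 luminal duct markers (Krt8, Krt18, Krt7, Krt19 and Cldn4) summed to 3035 against 2859, 2645 against 2620, 2933 against 2936 and 2154 against 2485 CPM in the same order. Each of the 9 was detected in the module-high barcodes of all 4 organoid libraries. Of the acinar markers Aqp5 alone was detected in them, at 36.9 against 33.6 CPM in the control and 14.2 against 7.14 after photons. It stood at 6.96 against 7.08 CPM after protons and at 55.5 against 12.2 in 11-day mSGOs. Single markers went both ways. In 11-day mSGOs Krt14 was higher in module-high barcodes, at 2536 against 1622 CPM, and Krt15 lower, at 537 against 835, and after photons Krt14 was lower, at 4383 against 4913, and Krt5 higher, at 2160 against 2065. The median depth of module-high barcodes was higher than that of the others, 9571 against 5331 UMIs in the control, 8801 against 4096 after photons and 8842 against 5043 after protons, and the part of depth in the module-high share was not tested beyond the thinned values above.

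In 11-day mSGOs the genes were lower than in 7-day controls and were found in fewer barcodes. Of the 41 members 36 were lower than in 7-day controls by at least 0.5, where 9.49% of 12189 genes were and 67% were higher, and the median of the members was -1.22 against 1.00 over all genes. Ube2c had the lowest ratio at -2.93 (-3.06 to -2.80), followed by Cenpa at -2.62 and Prc1 at -2.39, and Knl1 was closest to the control at -0.16 (-0.47 to 0.15). The 144 module-high barcodes (1.52%) held 66.8% of all member UMIs, against 49.5% in the control, with a median of 19 detected members each against 6. Among barcodes with at least 1% Malat1 the held share turned, at 64.1% in 11-day mSGOs against 77.5% in the control. At 1000 UMIs per barcode the order of the detected members turned, with a median of 8 in the 87 module-high barcodes of 11-day mSGOs against 10 in 40 of the control. The set stood at 10874 CPM in them against 13275. Thinning left out 3942 control barcodes and 152 of 11-day mSGOs. Without thinning, Cenpf inside barcodes with at least 5 other members stood at 85.2 CPM in the control and 520.4 in 11-day mSGOs, and Mki67 at 78.4 and 355. Member UMIs outside module-high barcodes came to 98.9 CPM of the whole 11-day library and 510 of the control, a ratio of -2.37. Among barcodes with at least 1% Malat1 they came to 98.5 and 248 CPM, a smaller ratio of -1.33 (-1.42 to -1.25).

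In 11-day mSGOs the share positive was lower for 38 of 41 members (median -1.29), while UMIs per positive barcode were lower for 12 of them (median 0.14), at a mean depth higher by 0.47 on the log2 scale. Within barcodes with at least 1% Malat1, where the 11-day depth was lower by 0.95, UMIs per positive barcode were lower for 31 of 41 (median -0.13). Ube2c was positive in 20.3% of control barcodes with 1.74 UMIs each, and in 1.44% of 11-day barcodes with 4.24 UMIs each. For Cenpf the values were 3.51% with 1.96 UMIs and 1.24% with 4.08 UMIs. Smc4 did not follow this pattern, being positive in 10.3% of control and 11.1% of 11-day barcodes with 1.48 and 1.29 UMIs, and only 23.7% of its 11-day UMIs lay in barcodes with at least 5 other members, against 92.1% for Ube2c and 94.8% for Cenpf. Smc4 made up 32.4% of the member UMIs outside module-high barcodes in 11-day mSGOs and 7.60% in the control. Tacc3 was the other gene with an even spread, at 27.4% in barcodes with at least 5 other members. After thinning, 38 of 39 members had a lower share in 11-day mSGOs (median -2.06), and Tacc3 was the exception at 0.06. Within barcodes with at least 1% Malat1, 39 of 40 members were lower, against 9.88% of 12000 genes, and the pooled ratio was -2.01 (-2.05 to -1.96). Here too a member could pass the UMI minimum through the control alone.

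Over all kept barcodes freshly isolated gland cells held little of the set. No member reached 50 UMIs in tissue, so the members that passed that minimum did so through the control, and no count of lower members is given for this comparison. With median-of-ratios scaling Ndc80 and Nuf2 stood above the control, at 0.19 and 0.24. Within barcodes with at least 1% Malat1 (158 in tissue) the pooled ratio was -1.25 (-1.41 to -1.10). Ttk had no UMI in tissue, which allows up to 0.506 CPM. Mki67, at 8.09 CPM, rested on 48 UMIs in 17 barcodes. The 7 module-high barcodes (0.499%, 0.201 to 1.03) held 63.9% of all member UMIs in tissue. In the 4 of them with at least 1% Malat1, the 6 macrophage markers summed to 10610 CPM against 3768 in the other barcodes with as much Malat1. C1qa stood at 4880 against 1405 CPM and was found in 3 of the 4, while Lyz2 was lower at 157 against 427. Nkg7, a gene of cytotoxic lymphocytes, stood at 629.7 against 75.0 CPM and was found in 1 of the 4. Epcam and Krt14 were at 0. C1qa, C1qb and Ptprc, the pan-immune CD45 gene, were at 0 in the module-high barcodes of all organoid libraries. The macrophage marker Cd68 was not. Among control barcodes with at least 1% Malat1 it stood at 15.6 CPM in module-high barcodes against 17.1 in the others. The values were 36.0 against 31.6 after photons, 14.8 against 28.0 after protons and 1.32 against 1.82 in 11-day mSGOs.

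Other genes of G2 and mitosis were also lower after irradiation in part. From a further list of 61 G2 and mitosis genes, of which 60 were found, 25 of the 55 tested were lower by 0.5 after photons and 23 of 55 after protons (medians -0.47 and -0.42). Over all genes 2.79% and 3.4% were lower. Of the 55, 1 was higher by 0.5 after photons and 3 after protons, where 6.74% and 5.93% of all genes were. Those with the most UMIs in the control were Ube2s, the elongating enzyme of the anaphase-promoting complex, at 319 CPM in the control, 214 with photons and 251 with protons, and Tubb4b, a beta tubulin, at 209, 241 and 241. Of the S phase genes 4 of 42 were lower after photons and 7 of 41 after protons (medians -0.13 and -0.26), beside the 2.79% and 3.4% of all genes. Within barcodes with at least 1% Malat1 it was 4 of 35 and 14 of 33 (medians -0.20 and -0.40), beside 3.6% and 4.73% of all genes. Rrm1, the large subunit of ribonucleotide reductase, stood at 52.0 CPM in the control, 78.0 with photons and 82.9 with protons. Gmnn (geminin), which blocks a second licensing of replication, stood at 46.7, 39.7 and 36.2 CPM in the same order. Genes that hold cells in G2 were mostly within the limit, with 0 and 1 of 10 lower and 2 of 10 higher in each comparison, where 6.74% and 5.93% of all genes were higher. The higher ones were Ccng1 (cyclin G1), at 96.8 CPM in the control, 186 with photons and 202 with protons (0.94 and 1.06), and Trp53inp1, at 42.2, 75.6 and 83.6 CPM (0.83 and 0.97), both p53 targets. The lower one after protons was Pkmyt1, an inhibitory kinase of Cdk1, at 3.93 CPM in the control and 2.34 with protons. Ccng1, Trp53inp1, Pkmyt1, Foxm1 and Lin54 were named after their values were seen, because they passed the limit. Cdkn1a, the p21 inhibitor of cyclin-dependent kinases, stood at 384 CPM in the control, 447 with photons and 503 with protons, ratios of 0.22 (0.17 to 0.26) and 0.39 (0.34 to 0.43). It was above the control in both irradiated libraries, by less than the limit. Sfn (14-3-3 sigma), which holds Cdk1 in the cytoplasm, stood at 1286 CPM in the control, 1021 with photons and 1077 with protons. Of the transcription regulators of these genes (the DREAM, B-Myb, Foxm1 and NF-Y factors) 1 of 16 was lower in each comparison, beside 2.79% and 3.4% of all genes, and 0 and 1 were higher, with medians of -0.04. The lower one was Foxm1 (-0.64 and -0.81), at 2.03 CPM in the control, 0.948 with photons and 0.727 with protons on 32, 24 and 18 UMIs, and the higher one Lin54, a MuvB subunit, at 15.3 CPM in the control and 22.4 with protons (0.52). Rbbp4, a MuvB subunit, stood at 60.5, 59.1 and 56.7 CPM in the 3 libraries, and Nfyb, an NF-Y subunit, at 37.9, 48.5 and 49.7.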

How the data were processed

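Single cells of mouse submandibular gland organoids and tissue were profiled by 10x 3′ RNA-seq, with 1 library per group. The authors deposited UMI counts per gene and barcode, not normalized. The submitters' processing notes name Cell Ranger 5 and mm10, while the study's methods name another mouse build, and no coordinates from the count files were used. The 5 libraries held 7151 to 19189 deposited barcodes.

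Barcodes with at least 200 genes and at most 5% mitochondrial UMIs were kept, and likely doublets were removed with Scrublet scores (scanpy 1.11.5), taking the highest scores up to 0.8% per 1000 barcodes by 1 rule for all libraries. Because the automatic threshold was unstable, it was not used. Counts of the 30406 genes found in both gene lists were summed per library and scaled to counts per 1000000 UMIs (CPM) with numpy 2.4.6 and pandas 2.3.3 under Python 3.11.15. Log2 ratios of single genes used 1 CPM added, pooled ratios none. Intervals at 95% were exact Poisson for CPM, conditional binomial for ratios and Clopper-Pearson for shares (scipy 1.17.1), and cover counting error only. A gene was tested for size where the 2 libraries held at least 50 UMIs, and counted as lower or higher at 0.5 (log2). No p-value was computed. Barcodes were also thinned to 1000 UMIs, and restricted to those with at least 1% Malat1. The log2 ratios with their intervals, the thinning and the split into share and UMIs per positive barcode were tested on simulated data. Counts for the intervals were drawn as Poisson counts, the model that the intervals assume. The other steps were not tested in this way. Members were described by role; those given in full were the 2 members with the most UMIs in the control of each role (with ties) and the 5 lowest and 5 least lowered after photons. The members and gene lists were chosen with earlier results of these data known. Figures were drawn with matplotlib 3.10.9.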

Additional observations from a re-analysis of the deposited data

Results flagged for a closer look

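Barcodes left out for a mitochondrial share over 5% also held UMIs of the 41 genes, which drew attention because these data are used in no comparison above. In the control the 279 such barcodes held 1813 CPM of the members (1698 to 1934), above the 1010 in kept control barcodes, and 31 of them (11.1%) were module-high. The values were 706 CPM in the photon library, 919 in the proton library, 230 in 11-day mSGOs and 30.4 in tissue. Keeping barcodes of up to 10% left the pooled ratios after photons and protons within their counting intervals.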

How the results depend on the processing

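No paired analysis was possible because each group held 1 library, and no library could be left out. Of the pooled ratios, module-high shares and counts of lower members, 77 values under alternatives stayed within the limit of movement, 66 moved and 2 reversed. Among single members 1782 stayed, 528 moved and 19 reversed. The causes were not tested.

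With at least 2500 genes per barcode the pooled log2 ratio was -0.85 (photons), -0.90 (protons), -0.046 (protons to photons, reversed), -0.79 (11-day) and -2.74 (tissue), and with at most 2500 genes -0.61, -0.48, 0.13, -2.20 and -3.73. With at least 2000 UMIs it was -0.74, -0.67, -1.64 (11-day) and -3.13 (tissue). With at least 1% Malat1 it was -0.82, -0.81, 0.0040, -2.01 and -1.25. Thinned to 1000 UMIs it was -0.57, -0.48, -2.08 (11-day) and -3.71 (tissue), and with both the last limits -0.74 (protons), -0.025 (protons to photons, reversed), -2.34 (11-day) and -1.85 (tissue). Median-of-ratios scaling gave -0.80, -0.69, -2.89 (11-day) and -1.89 (tissue). A mitochondrial limit of 10% gave -1.82 (11-day) and -3.42 (tissue), and all deposited barcodes -1.86 and -4.57.

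The module-high share ratio was -0.77 (photons), -0.89 (protons) and -1.41 (tissue) with at least 2500 genes, -2.94 (photons) and -2.33 (11-day) with at most 2500, and -1.75, -1.70 and -3.50 (11-day) with at least 2000 UMIs. With at least 1% Malat1 it was -1.05, -0.92 and -3.77 (11-day). Thinned it was -2.87, -1.87, 1.01 (protons to photons), -0.75 (11-day) and -2.44 (tissue), and with both limits -1.63, -1.15 and -0.79 (tissue). All deposited barcodes gave -2.27 (11-day) and -6.63 (tissue). With at least 3 members it was -1.67, -1.53 and -3.00 (11-day), and with at least 10 members -1.996 (photons), -0.19 (protons to photons), -0.11 (11-day) and -2.16 (tissue). Members lower by 0.5 numbered 17 of 31 and 19 of 30 after thinning, 8 of 14 and 9 of 11 with both limits (6.52% and 7.3% of all genes), and 21 of 41 (photons) with 5 CPM added. After thinning and with both limits, members could pass the UMI minimum through the control alone.

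Single members that reversed after photons were Ckap2 (0.22) and Anln (0.40) with both limits and Smc4 (0.015) thinned. Between protons and photons they were Cdk1 (-0.045) and Hmmr (-0.11) with at least 2500 genes, Cdk1 (-0.39) with both limits and Nusap1 (0.012) thinned. In 11-day mSGOs they were Cenpf (0.19), Nuf2 (0.32), Kif11 (0.76), Aspm (0.34) and Ect2 (0.30) with at least 2500 genes, and Tacc3 thinned (0.091) and with both limits (0.44). In tissue they were Cdca3 (0.13), Kif11 (0.48) and Kif23 (0.31) with at least 1% Malat1, and Ndc80 (0.19) and Nuf2 (0.24) with median-of-ratios scaling. Depth limited the thinned values, where 70 member values, and 146 with both limits, had under 50 UMIs and were left out.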

Other observations

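In 11-day mSGOs the 91 barcodes with between 0.1% and 1% Malat1 held 2512 CPM of the members (2348 to 2685), against 274 in barcodes with at least 1%, and 29 of them (31.9%) were module-high.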
